A study of Mus musculus with 12 samples.

Results

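Fkbp5 and 9 other genes known as targets of both the progesterone receptor and the glucocorticoid receptor, or as partners of those receptors, were followed through a pregnant mouse uterus in which 1 or the other isoform of the progesterone receptor was overexpressed. The 10 genes, Fkbp5, Fkbp4, Tsc22d3, Zbtb16, Klf9, Per1, Sgk1, Dusp1, Errfi1 and Irs2, were found by symbol in the table of read counts. All 10 were among its 24964 genes, and all 10 had enough reads to be among the 15561 genes tested. RNA of mouse uterine tissue taken 13.5 days post coitum was sequenced in 12 libraries, 4 of each of 3 genotypes. The PGR-B:OE mice were Myh11Cre; LSLPGRB/+ and overexpressed isoform B in the myometrium, the PGR-A:OE mice were Myh11Cre; LSLPGRA/+ and overexpressed isoform A there, and the controls carried Myh11Cre without either allele. All 3 groups therefore carry the Cre recombinase, which is driven by Myh11, a smooth muscle gene, and no library without Cre was analysed here. Whether each library is an animal of its own is not stated in the labels. The p-values therefore set group differences against the spread between these libraries, which may partly be technical.

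The progesterone and glucocorticoid receptors are closely related nuclear receptors that are held in a complex with the chaperone HSP90 before they bind hormone. They recognise nearly the same DNA element. Many genes therefore answer to either hormone, and Fkbp5 is the textbook example: its product FKBP51 joins the HSP90 complex and lowers hormone binding, so the gene acts as a brake on the receptors that induce it. Fkbp4 encodes its close relative FKBP52, which favours receptor activity, and mice without it have a uterus that responds poorly to progesterone. In the pregnant uterus, progesterone holds the myometrium quiet until birth.

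Depth differed little, with 31872534 to 33078483 counts per library. PGR-A:OE replicate 4 stood apart, at 62.4 on a first principal component that held 23.0% of the variance. Values without that library are given beside several of the results that it moved. It had 5.02 CPM (counts of a gene per 1000000 counts of its library, after TMM scaling) of the decidual prolactin Prl8a2, and the other 11 libraries ranged from 174 CPM in Myh11Cre control replicate 1 to 5054 CPM in Myh11Cre control replicate 4. The receptor gene itself, Pgr, followed the labels, with 188 to 248 CPM in PGR-B:OE and 166 to 255 CPM in PGR-A:OE libraries, against 106 to 142 CPM in Myh11Cre control libraries. Pgr counts pool both isoforms and any transgene reads.

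The promoter windows of these genes were searched for the letters of the element that both receptors bind. RefSeq windows of 250 bases before the start of a transcript (assembly GRCm38.p6) were at hand for 9 of the 10 genes, all but Zbtb16. These made 18 windows, which were compared with all 32817 such windows. The full palindrome, 15 bases made of AGAACA, 3 free bases and TGTTCT, was found in 3 windows of the 32817 (0.00914%). Of these, 1 belongs to Sgk1. The arm TGTTCT was found on either strand in 16.1% of all windows and in windows of Sgk1 and Tsc22d3. The windows are shown in lower case for Fkbp5, the gene with the clearest difference below, for the Sgk1 start with the palindrome, for the Tsc22d3 start with an arm, and for Errfi1. Capitals mark CACGTG in Fkbp5, TGTTCT or its reverse complement AGAACA in Sgk1 and Tsc22d3, and TGACGTCA in Errfi1.
Fkbp5 (chr17:28486150-28486399, minus strand): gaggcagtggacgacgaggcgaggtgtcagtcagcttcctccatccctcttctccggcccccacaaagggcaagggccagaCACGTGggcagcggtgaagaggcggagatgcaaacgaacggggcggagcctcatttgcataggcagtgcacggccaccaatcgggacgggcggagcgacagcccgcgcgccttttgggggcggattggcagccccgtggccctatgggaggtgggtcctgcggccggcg
Sgk1 (chr10:21993640-21993889, plus strand): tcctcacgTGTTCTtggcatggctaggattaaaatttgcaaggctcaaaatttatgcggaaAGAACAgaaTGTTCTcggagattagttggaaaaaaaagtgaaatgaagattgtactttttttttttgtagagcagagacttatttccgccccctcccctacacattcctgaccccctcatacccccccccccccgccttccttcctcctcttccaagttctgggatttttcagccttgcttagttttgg
Tsc22d3 (chrX:140600523-140600772, minus strand): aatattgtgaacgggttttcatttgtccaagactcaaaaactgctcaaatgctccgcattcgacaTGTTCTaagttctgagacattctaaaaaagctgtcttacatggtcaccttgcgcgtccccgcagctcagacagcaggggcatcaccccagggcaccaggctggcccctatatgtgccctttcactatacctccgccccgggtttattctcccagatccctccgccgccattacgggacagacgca
Errfi1 (chr4:150854820-150855069, plus strand): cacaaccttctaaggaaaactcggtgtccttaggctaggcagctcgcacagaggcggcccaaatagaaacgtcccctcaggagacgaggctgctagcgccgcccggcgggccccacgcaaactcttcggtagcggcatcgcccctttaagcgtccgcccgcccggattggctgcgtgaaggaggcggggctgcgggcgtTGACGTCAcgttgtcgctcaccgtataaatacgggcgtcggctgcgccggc

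In the Sgk1 window the palindrome spans 189 to 175 bases before the start, at chr10:21993701-21993715, and its arms are the pair of capitalised stretches that lie 3 bases apart. The remaining TGTTCT of that window lies 242 to 237 bases before the start and overlaps a CACGTG. The Fkbp5, Sgk1 and Errfi1 windows lie inside the longer gene models of GENCODE, whose starts are farther upstream. The Fkbp5 window held no TGTTCT on either strand. It held the E-box CACGTG, which circadian clock factors and MYC bind, 169 to 164 bases before the start, and 2 CCAAT boxes. CACGTG was present in 6.02% of all windows and in windows of Fkbp5, Per1, Dusp1, Irs2 and Sgk1. The cAMP response element TGACGTCA was present in 1.55% of all windows and in windows of Errfi1, 51 to 44 bases before the start, and Dusp1. Also searched on both strands were ACANNNTGT, the core of the palindrome (5.84% of all windows, Sgk1 among them), TGACG, which lies in TGACGTCA (17.7%), CCAAT (33.8%) and the heat shock element, GAA and TTC and GAA with 2 free bases between each (0.466%, with no match in the windows of these genes). These windows leave out introns and distant enhancers, where much of the receptor binding at such genes is known to occur. Exact letters alone were searched, so a binding site that departs from them would be missed.

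Of the 10 genes, Fkbp5 was the one that passed in PGR-B:OE against Myh11Cre control, by the quasi-likelihood test of edgeR, adjusted after Benjamini and Hochberg over all 15561 genes, at a threshold of 0.05, and 0.308% of all genes passed in that comparison (0.283% as higher). DESeq2 and limma voom each also called Fkbp5 alone among the 10. In PGR-A:OE against Myh11Cre control 0 of the 10 genes passed by edgeR, DESeq2 or limma voom, where 0.655% of all genes passed by edgeR. At an unadjusted edgeR p under 0.05 stood 0 of the 10, beside 15.4% of all genes. Between PGR-B:OE and PGR-A:OE 0 of the 10 passed by edgeR or limma voom, where 0.116% of all genes passed by edgeR. Fkbp5 was the 1 gene of the 10 with an unadjusted edgeR p under 0.05, beside 8.04% of all genes. It was also the 1 gene of the 10 called by DESeq2, which called 125 of all genes. Adjusted p-values below are edgeR's unless another tool is named, and a difference in a log2 unit is the fitted log2 fold change. Counts of genes at an unadjusted edgeR p under 0.05 are to be read beside the share of all genes. That share was 9.28% in PGR-B:OE and 15.4% in PGR-A:OE against Myh11Cre control, and 8.04% between PGR-B:OE and PGR-A:OE. DESeq2 passed more genes than edgeR, so its calls are to be read beside its own totals. These were 216 in PGR-B:OE and 575 in PGR-A:OE against Myh11Cre control, and 125 between PGR-B:OE and PGR-A:OE. The totals of edgeR were 48, 102 and 18 in the same order.

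The libraries of 2 groups did not overlap for Fkbp5 and Errfi1 in PGR-B:OE against Myh11Cre control (2 of 10 genes, where 5.67% of all genes did not overlap), and for Fkbp5 between PGR-B:OE and PGR-A:OE (1 of 10 genes, where 3.85% of all genes did not overlap). In PGR-A:OE against Myh11Cre control the groups overlapped for each of the 10 genes, where 10.6% of all genes did not overlap. The median log2 fold change of the 10 genes was 0.02 in PGR-B:OE and 0.01 in PGR-A:OE against Myh11Cre control, beside -0.01 and 0.00051 over all genes, and it was 0.12 for PGR-B:OE over PGR-A:OE, beside 0.0045. The median of the list thus lay near that of all genes against the controls. Fkbp5 was the highest of the 10 in PGR-B:OE, while in PGR-A:OE its 0.24 was below the 0.27 of Irs2. The comparisons with the control group share its 4 libraries.

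**Figure D1:**
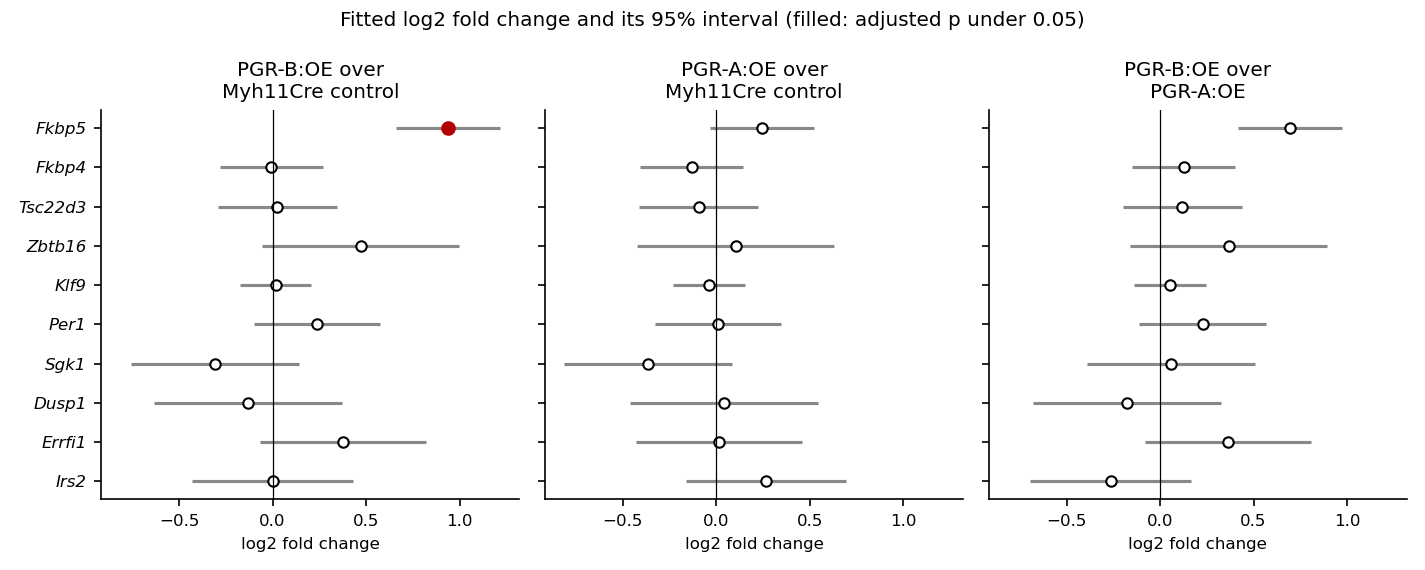
Fitted log2 fold change (x axis) of each of the 10 genes (rows) in the 3 comparisons, with 95% intervals as bars, and a filled point where the adjusted p is under 0.05. Fkbp5 in PGR-B:OE over Myh11Cre control, at 0.94, is the 1 filled point, Fkbp5 lies at 0.24 and 0.70 in the remaining comparisons, and the other 9 genes lie between -0.37 and 0.47.

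Fkbp5 (chromosome 17, 28399094 to 28517527, minus strand, GRCm38) was measured at 124.5, 119.0, 167.5 and 118.9 CPM in PGR-B:OE replicates 1 to 4, at 78.4, 88.2, 72.1 and 88.5 CPM in PGR-A:OE replicates 1 to 4, and at 68.4, 58.0, 69.8 and 80.3 CPM in Myh11Cre control replicates 1 to 4. Every PGR-B:OE library lay above all 8 others, while the PGR-A:OE and Myh11Cre control ranges overlapped. The group means were 132 ± 23.5 CPM in PGR-B:OE, 81.8 ± 8.01 CPM in PGR-A:OE and 69.1 ± 9.14 CPM in Myh11Cre control (SD, n = 4 each). Fkbp5 rose in PGR-B:OE against Myh11Cre control by 0.94 on the log2 scale (SE 0.13, 95% interval 0.66 to 1.22, a 1.92-fold level, adjusted p = 0.00743), and was 17th by p among all genes tested.

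The rise of Fkbp5 in PGR-B:OE did not rest on a single library. It passed in each of the 12 fits that left a library out, with adjusted p-values from 0.00733 to 0.0408, and without PGR-B:OE replicate 3, the highest library, the difference was 0.81 (adjusted p = 0.0107). In PGR-A:OE against Myh11Cre control the difference was 0.24 (SE 0.13, 95% interval -0.04 to 0.52, adjusted p = 0.384), so that a rise of up to about that upper bound cannot be told from none with these libraries. PGR-B:OE over PGR-A:OE, which compares the isoforms with each other, gave 0.70 (SE 0.13, 95% interval 0.42 to 0.97, adjusted p = 0.0857), which missed the threshold although no library overlapped. DESeq2 called that difference (adjusted p = 0.000233 by DESeq2), and edgeR did not in any of the 12 fits with a library left out, where the adjusted p ranged from 0.0624 to 0.292.

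In bulk tissue, fewer cells of a type and less RNA per cell cannot be told apart, so the markers of the cell types are given beside Fkbp5 as sums of CPM. The 18 smooth muscle markers summed to 17310.5 to 23225 CPM in PGR-B:OE and 23757 to 33171 CPM in PGR-A:OE libraries, against 17940 to 23413 CPM in Myh11Cre control libraries. The PGR-B:OE range thus lay below the PGR-A:OE range and overlapped that of the controls. The 10 fibroblast and stromal markers summed to 42040 to 52407 CPM in PGR-B:OE and 40990 to 52581 CPM in PGR-A:OE libraries. The sum was 35657 to 37493 CPM in Myh11Cre control libraries, below both overexpression groups. Col1a1 made up much of the sum, with an average of 15891 CPM in PGR-B:OE and 11649 CPM in Myh11Cre control. Above 0 against Myh11Cre control were the fitted changes of 7 of the 10 in PGR-B:OE and 8 of the 10 in PGR-A:OE. Of the muscle and fibroblast markers edgeR and limma voom called 0 in PGR-B:OE against Myh11Cre control. DESeq2, which called 216 of all genes there, called 4 collagen genes as higher (Col1a1, Col1a2, Col3a1 and Col15a1). An unadjusted edgeR p under 0.05 was held by 5 fibroblast markers and 0 muscle markers. In PGR-A:OE edgeR called Col15a1 as higher, at 920 ± 246 CPM against 494 ± 41.4 CPM in Myh11Cre control (SD, n = 4 each, log2 fold change 0.90, adjusted p = 0.0392). That call was kept in 4 of the 12 fits with a library left out. Without PGR-A:OE replicate 4 the difference of Col15a1 was 0.69 (adjusted p = 0.0316). DESeq2, which called 575 of all genes in PGR-A:OE, called the same 4 collagen genes there. In that comparison 5 of the 10 fibroblast markers had an unadjusted edgeR p under 0.05. Between PGR-B:OE and PGR-A:OE edgeR, DESeq2 and limma voom called 0 of the 10, with 1 at an unadjusted edgeR p under 0.05. Of the 18 muscle markers edgeR and limma voom called 0 in each comparison. In PGR-A:OE against Myh11Cre control 6 (33.3%) had an unadjusted edgeR p under 0.05, beside 15.4% of all genes. DESeq2 called 3 as higher there (Des, Myh11 and Synm). Between PGR-B:OE and PGR-A:OE 10 (55.6%) had such a p, beside 8.04% of all genes, and DESeq2 called 2 as lower (Des and Synm). The fitted change of the muscle markers was above 0 for 0 of 18 in PGR-B:OE over PGR-A:OE (median -0.38). Against Myh11Cre control it was above 0 for 17 of 18 in PGR-A:OE (median 0.30) and 5 of 18 in PGR-B:OE (median -0.07). The part of these markers in the difference of Fkbp5 was not tested.

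The other cell types overlapped between PGR-B:OE and Myh11Cre control libraries. Endothelial markers (13 genes) summed to 880 to 1057 CPM in PGR-B:OE against 912 to 1035 CPM in Myh11Cre control, and leukocyte markers (17 genes) to 771 to 1216 CPM in PGR-B:OE against 996 to 1123 CPM in Myh11Cre control. Epithelial and gland markers (13 genes) summed to 1899 to 2973 CPM in PGR-B:OE against 1858 to 2701 CPM in Myh11Cre control. Decidual and trophoblast markers (17 genes, of which 6 were tested) summed to 938 to 1187 CPM in PGR-B:OE against 324 to 5252 CPM in Myh11Cre control. Prl8a2 alone made up 5054 of the 5252 CPM in Myh11Cre control replicate 4. The trophoblast genes Psg18, Psg21 and Gcm1 had no count in any library. In PGR-A:OE the sums were 991 to 1154 CPM for endothelial, 899 to 1158 for leukocyte, 1881 to 2426 for epithelial and 96.3 to 1435 for decidual markers. The fitted change was above 0 for 13 of 13 endothelial markers in PGR-A:OE against Myh11Cre control, and for 0 of 13 in PGR-B:OE over PGR-A:OE. By edgeR and limma voom 0 genes of these 4 lists passed in any comparison, and by DESeq2 1 did, Vwf as higher in PGR-A:OE against Myh11Cre control. At an unadjusted edgeR p under 0.05 stood 0 of their tested genes in PGR-B:OE against Myh11Cre control. In PGR-A:OE against Myh11Cre control 4 endothelial, 2 epithelial, 1 decidual and 0 leukocyte genes did, and between PGR-B:OE and PGR-A:OE 3 endothelial, 1 epithelial, 0 decidual and 0 leukocyte genes. The smooth muscle genes Myh11 and Actg2 were abundant in all 12 libraries, at 2423 to 6316 and 1471 to 2893 CPM, so the tissue carried the muscle that the Cre driver targets.

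**Figure D2:**
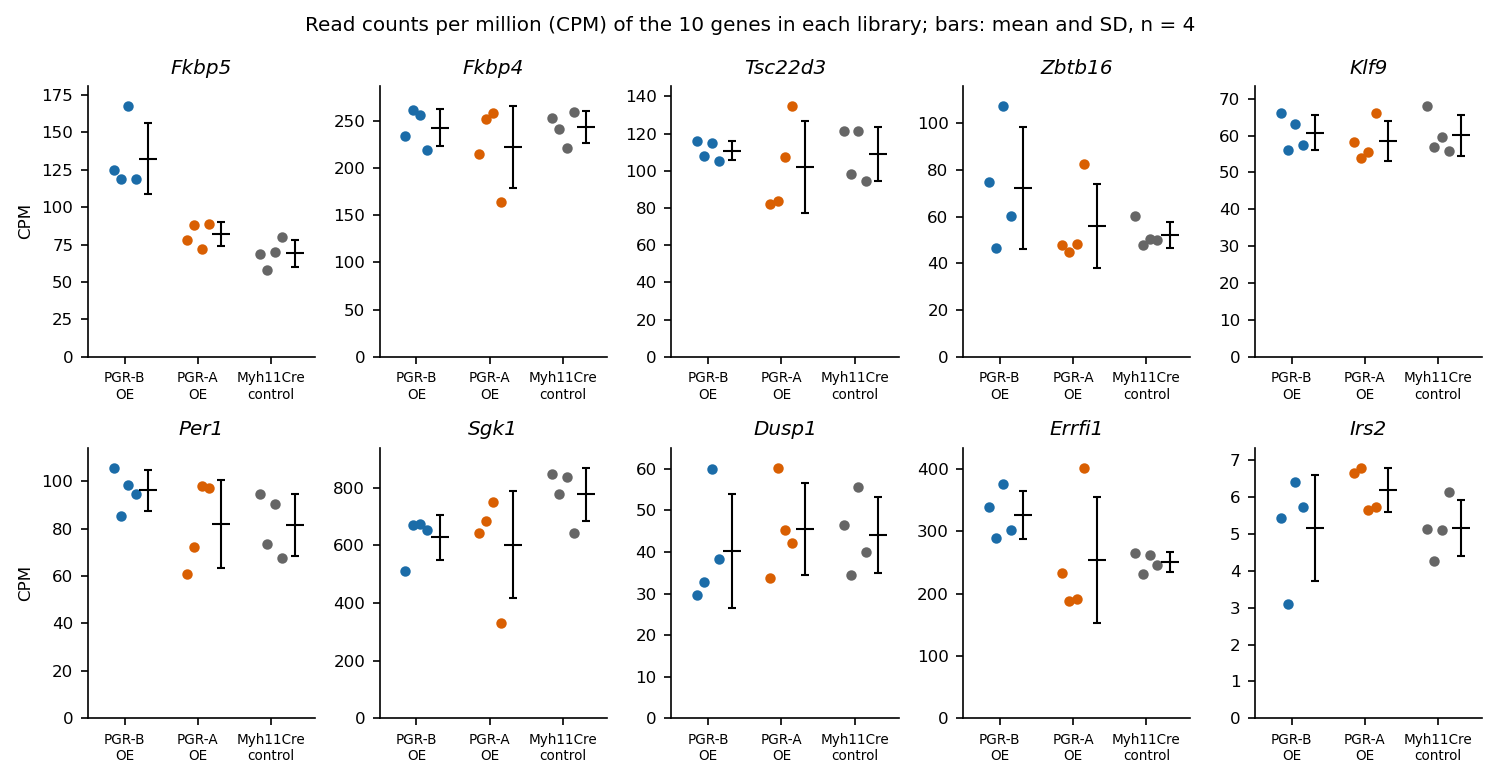
Level of each of the 10 genes in CPM (y axis, from 0) in the 4 libraries of PGR-B:OE (blue), PGR-A:OE (orange) and Myh11Cre control (grey), with the mean and SD beside the points. For Fkbp5 the 4 PGR-B:OE libraries, from 118.9 to 167.5 CPM, lie above all others, and for most other genes the 3 groups overlap.

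Fkbp4 (chromosome 6, 128429735 to 128438677, minus strand), the counterpart of Fkbp5 in the receptor complex, had 233, 261, 256 and 219 CPM in PGR-B:OE, 215, 251, 258 and 164 CPM in PGR-A:OE, and 253, 241, 221 and 259 CPM in Myh11Cre control. The 3 groups overlapped, and PGR-A:OE replicate 4 was the lowest of all 12 libraries. The difference was -0.01 in PGR-B:OE (95% interval -0.28 to 0.27, adjusted p = 0.994) and -0.13 in PGR-A:OE (95% interval -0.41 to 0.14, adjusted p = 0.650) against Myh11Cre control. Fkbp5 thus moved where its paralog gave an interval around 0. The ratio of the fold changes of Fkbp5 and Fkbp4 was not itself tested.

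The chaperone machinery around the receptors held no called gene. Of 19 genes of the HSP90 machinery, edgeR, DESeq2 and limma voom called 0 in each of the 3 comparisons, with 1 gene at an unadjusted edgeR p under 0.05 in PGR-B:OE against Myh11Cre control, 1 in PGR-A:OE against Myh11Cre control and 2 between PGR-B:OE and PGR-A:OE. Their median log2 fold change was 0.06 in PGR-B:OE and -0.04 in PGR-A:OE against Myh11Cre control. Among 11 other genes of FK506-binding proteins that could be tested, edgeR, DESeq2 and limma voom called 0 in each comparison. In PGR-A:OE against Myh11Cre control 4 of those 11 had an unadjusted edgeR p under 0.05, beside 15.4% of all genes, and in PGR-B:OE against Myh11Cre control 1 did, beside 9.28%. Fkbp9, a chaperone of the endoplasmic reticulum, averaged 422 ± 12.7 CPM in PGR-A:OE against 351 ± 37.6 CPM in Myh11Cre control (SD, n = 4 each; adjusted p = 0.210). Fkbp1b, which binds calcium release channels, averaged 2.48 ± 0.101 CPM in PGR-B:OE against 3.31 ± 0.369 CPM in Myh11Cre control (SD, n = 4 each; adjusted p = 0.346).

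The transcription regulators among the targets came next. Tsc22d3 (chromosome X, 140539528 to 140600659, minus strand) encodes GILZ, a leucine zipper protein that carries part of the anti-inflammatory action of glucocorticoids. It had 115.8, 107.8, 114.9 and 105.2 CPM in PGR-B:OE, 82.0, 84.0, 107.5 and 134.9 CPM in PGR-A:OE, and 121.6, 98.4, 121.4 and 94.7 CPM in Myh11Cre control. The PGR-B:OE libraries lay close together within the range of the controls, and the PGR-A:OE libraries held both the lowest and the highest value of all 12. The differences against Myh11Cre control were 0.03 in PGR-B:OE (95% interval -0.29 to 0.34) and -0.09 in PGR-A:OE (95% interval -0.41 to 0.22). Both intervals span 0. Without PGR-A:OE replicate 4, the highest library, the difference in PGR-A:OE was -0.26 (adjusted p = 0.388), and without PGR-A:OE replicate 1, the lowest, it was -0.0026.

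Zbtb16 (chromosome 9, 48654297 to 48836222, minus strand) encodes the zinc finger repressor PLZF, a marker of the decidual response to progesterone in human endometrial cells. It had 74.9, 46.7, 107.3 and 60.2 CPM in PGR-B:OE, 47.9, 45.0, 48.5 and 82.7 CPM in PGR-A:OE, and 60.4, 48.0, 50.4 and 49.8 CPM in Myh11Cre control. PGR-B:OE replicate 3 was the highest library for Zbtb16, as it was for Fkbp5, but PGR-B:OE replicate 2 lay below every control. The difference in PGR-B:OE against Myh11Cre control was 0.47 (SE 0.24, 95% interval -0.06 to 1.00, adjusted p = 0.583), and leaving out single libraries moved it between 0.22 and 0.64. In PGR-A:OE the difference of 0.10 (95% interval -0.42 to 0.63) became -0.15 without PGR-A:OE replicate 4.

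Klf9 (chromosome 19, 23141226 to 23168134, plus strand) encodes a zinc finger factor that binds the progesterone receptor in the uterus. Its 12 libraries ran from 53.8 to 68.0 CPM, the narrowest range among the 10 genes on the log2 scale, with means of 60.7 ± 4.74 CPM in PGR-B:OE, 58.4 ± 5.42 CPM in PGR-A:OE and 60.0 ± 5.56 CPM in Myh11Cre control (SD, n = 4 each). The differences against Myh11Cre control were 0.02 in PGR-B:OE (95% interval -0.18 to 0.21) and -0.04 in PGR-A:OE (95% interval -0.23 to 0.15). For Klf9 the libraries bound a change of either sign to a small size. Among 13 other KLF genes tested, edgeR, DESeq2 and limma voom called 0 in each comparison, and 1 gene in PGR-B:OE, 0 in PGR-A:OE and 0 between the isoforms had an unadjusted edgeR p under 0.05. That gene was Klf13, at 69.3 ± 4.73 CPM in PGR-B:OE against 60.4 ± 2.85 CPM in Myh11Cre control (SD, n = 4 each; adjusted p = 0.416).

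Per1 (chromosome 11, 69095217 to 69109960, plus strand), a repressor of the circadian clock that glucocorticoids induce within minutes, had 105.8, 85.4, 98.6 and 94.6 CPM in PGR-B:OE, 60.8, 72.5, 97.9 and 97.1 CPM in PGR-A:OE, and 94.7, 73.4, 90.4 and 67.4 CPM in Myh11Cre control. PGR-A:OE libraries fell into a low pair, replicates 1 and 2, and a high pair, replicates 3 and 4, and the controls were spread from 67.4 to 94.7 CPM. The same pairs were seen for the clock gene Per2, with 28.7 and 34.1 CPM in PGR-A:OE replicates 1 and 2 and 61.2 and 71.8 CPM in PGR-A:OE replicates 3 and 4. The decidual gene Prl8a2 split the group into the same pairs in the opposite order, with 1278 and 1230 CPM in PGR-A:OE replicates 1 and 2 and 192 and 5.02 CPM in PGR-A:OE replicates 3 and 4, and its part in these values was not tested. The difference of Per1 was 0.24 in PGR-B:OE (95% interval -0.10 to 0.58, adjusted p = 0.695) and 0.01 in PGR-A:OE (95% interval -0.33 to 0.35, adjusted p = 0.984) against Myh11Cre control, and the value in PGR-A:OE became -0.081 without PGR-A:OE replicate 4.

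Of 18 other clock genes, edgeR, DESeq2 and limma voom called 0 in each comparison. At an unadjusted edgeR p under 0.05 stood 0 in PGR-B:OE and 1 in PGR-A:OE against Myh11Cre control, and 2 between PGR-B:OE and PGR-A:OE. The 1 gene was Dbp, an output factor of the clock with a strong daily rhythm, at 12.1, 18.3, 22.2 and 33.2 CPM in PGR-A:OE replicates 1 to 4 against 10.1, 11.1, 20.2 and 12.3 CPM in Myh11Cre control replicates 1 to 4 (adjusted p = 0.286). Dbp, like Per1 and Per2, was lowest in PGR-A:OE replicates 1 and 2 of that group. In PGR-B:OE, Nfil3, a repressor of clock output, averaged 56.7 ± 10.9 CPM against 45.2 ± 9.32 CPM in Myh11Cre control (SD, n = 4 each; adjusted p = 0.569).

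The remaining targets act in signalling. Sgk1 (chromosome 10, 21882184 to 21999903, plus strand) encodes a kinase that raises sodium transport by restraining the ubiquitin ligase NEDD4L, and it is the gene with the full palindrome above. It had 511, 670.5, 674 and 653 CPM in PGR-B:OE, 644, 684, 751 and 332 CPM in PGR-A:OE, and 847, 778, 837 and 644 CPM in Myh11Cre control. Both overexpression groups reached into the range of the controls through Myh11Cre control replicate 4, the lowest of its group. The difference was -0.31 in PGR-B:OE (SE 0.21, 95% interval -0.76 to 0.14, adjusted p = 0.706) and -0.37 in PGR-A:OE (SE 0.21, 95% interval -0.82 to 0.08, adjusted p = 0.422) against Myh11Cre control. Neither passed, both estimates lay below 0 in each of the 20 alternative settings, and the estimate in PGR-A:OE was -0.16 without PGR-A:OE replicate 4. Between the isoforms the sign was not fixed, with 0.06 for PGR-B:OE over PGR-A:OE and -0.14 without PGR-A:OE replicate 4.

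Dusp1 (chromosome 17, 26505590 to 26562128, minus strand) encodes a phosphatase that switches off MAP kinases. Its annotated exons share bases with Ergic1 on the opposite strand, which held 48786 counts over the 12 libraries, and since the use of strand in the counting is not given in the sources used here, its counts are uncertain. It had 29.6, 32.7, 60.0 and 38.4 CPM in PGR-B:OE, 33.8, 60.3, 45.3 and 42.2 CPM in PGR-A:OE, and 46.5, 34.4, 55.5 and 39.9 CPM in Myh11Cre control. The spread within each group was larger than any difference between them, and the difference against Myh11Cre control was -0.13 in PGR-B:OE (95% interval -0.64 to 0.37) and 0.04 in PGR-A:OE (95% interval -0.46 to 0.55). In each group the library with the highest Dusp1 was also the highest for Fos, a gene that answers within minutes to handling and other stimuli. Fos had 26.3 CPM in PGR-B:OE replicate 3, 23.9 CPM in PGR-A:OE replicate 2 and 30.3 CPM in Myh11Cre control replicate 3, and no more than 16.7 CPM in the other 9 libraries. Of 24 immediate early genes edgeR, DESeq2 and limma voom called 0 in each comparison, with 0 at an unadjusted edgeR p under 0.05 in PGR-B:OE and 2 in PGR-A:OE against Myh11Cre control and 1 between PGR-B:OE and PGR-A:OE. The lowest p in PGR-A:OE belonged to Zfp36, which encodes an RNA decay factor, at 54.6 ± 1.88 CPM against 66.4 ± 8.29 CPM in Myh11Cre control (SD, n = 4 each; adjusted p = 0.229).

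Errfi1 (chromosome 4, 150853919 to 150868892, plus strand) encodes MIG6, an inhibitor of the EGF receptor and a progesterone receptor target that restrains growth in the mouse uterus. It had 338, 290, 375 and 302 CPM in PGR-B:OE, 233, 189, 191 and 402 CPM in PGR-A:OE, and 265, 231, 262 and 245 CPM in Myh11Cre control. All 4 PGR-B:OE libraries lay above the controls, PGR-A:OE replicates 2 and 3 lay below them, PGR-A:OE replicate 1 lay at their lower end, and PGR-A:OE replicate 4 lay above every other library of the series. The difference was 0.38 in PGR-B:OE (SE 0.20, 95% interval -0.07 to 0.82, adjusted p = 0.609) and 0.01 in PGR-A:OE (SE 0.20, 95% interval -0.43 to 0.46, adjusted p = 0.982) against Myh11Cre control.

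For Errfi1, PGR-A:OE replicate 4 decided the comparison of the isoforms. PGR-B:OE over PGR-A:OE gave 0.36 (SE 0.20, adjusted p = 0.717) with all 12 libraries and 0.68 (adjusted p = 0.0309) without PGR-A:OE replicate 4, which is past the threshold. With Myh11Cre control replicate 4, the library with the most Prl8a2, left out as well, it was 0.68 (adjusted p = 0.0408). Without PGR-A:OE replicate 4 the difference in PGR-A:OE against Myh11Cre control was -0.30 (adjusted p = 0.268), where it had been 0.01. In PGR-B:OE against Myh11Cre control the same omission left it at 0.38 (adjusted p = 0.166).

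Irs2 (chromosome 8, 10984681 to 11008458, minus strand), an adaptor that carries the insulin signal from its receptor, was the least expressed of the 10 genes. It had 5.43, 3.10, 6.41 and 5.72 CPM in PGR-B:OE, 6.64, 6.79, 5.65 and 5.73 CPM in PGR-A:OE, and 5.13, 4.26, 5.11 and 6.13 CPM in Myh11Cre control. The groups overlapped, with differences of 0.00137 in PGR-B:OE (95% interval -0.43 to 0.43) and 0.27 in PGR-A:OE (95% interval -0.16 to 0.69, adjusted p = 0.550) against Myh11Cre control. An unnamed gene model on the opposite strand shares exon bases with Irs2, but it held 23 counts over the 12 libraries.

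Levels can be compared between genes once counts are divided by gene length. Over all 12 libraries Sgk1 averaged 161 ± 33.9, Fkbp4 107.6 ± 12.9 and Errfi1 82.5 ± 20.1 CPM per kilobase (SD, n = 12), and the ranges of neighbours among these 3 overlapped. A gap without overlap separated Errfi1 from Tsc22d3 (33.1 ± 4.84), which was followed, with overlaps, by Fkbp5 (24.3 ± 8.18), Dusp1 (22.3 ± 5.46), Per1 (18.4 ± 3.07), Klf9 (18.3 ± 1.49) and Zbtb16 (11.8 ± 3.73 CPM per kilobase). Irs2, at 1.37 ± 0.260 CPM per kilobase, lay below all of them without overlap and below 6.58 CPM per kilobase, the median of all genes tested. The level of Fkbp5 was 34.1 ± 6.05 in PGR-B:OE and 21.1 ± 2.06 in PGR-A:OE, against 17.8 ± 2.35 CPM per kilobase in Myh11Cre control (SD, n = 4 each), and so stayed below that of Fkbp4 in every group.

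The genes varied among themselves from library to library. PGR-A:OE replicate 4 was the highest of its group for 5 of the 10 genes, Fkbp5, Tsc22d3, Zbtb16, Klf9 and Errfi1, and the lowest for Fkbp4 and Sgk1. Without it the difference in PGR-A:OE against Myh11Cre control was -0.011 for Fkbp4, where it had been -0.13, and -0.10 for Klf9, where it had been -0.04. The same library had the highest smooth muscle sum of its group, 33171 CPM, the highest Pgr, 255 CPM, and the lowest Prl8a2, and the part of these in its values was not tested. PGR-B:OE replicate 3 was the highest of its group for 6 of the 10 genes, Myh11Cre control replicate 1 was the highest of its group for 6, and Myh11Cre control replicate 2 was the lowest of its group for 5. Fkbp5 and Zbtb16 shared their highest library in PGR-B:OE (replicate 3) and in PGR-A:OE (replicate 4), though not in Myh11Cre control. Sgk1 and Errfi1, by contrast, were at opposite ends of the range in PGR-A:OE replicate 4.

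**Figure D3:**
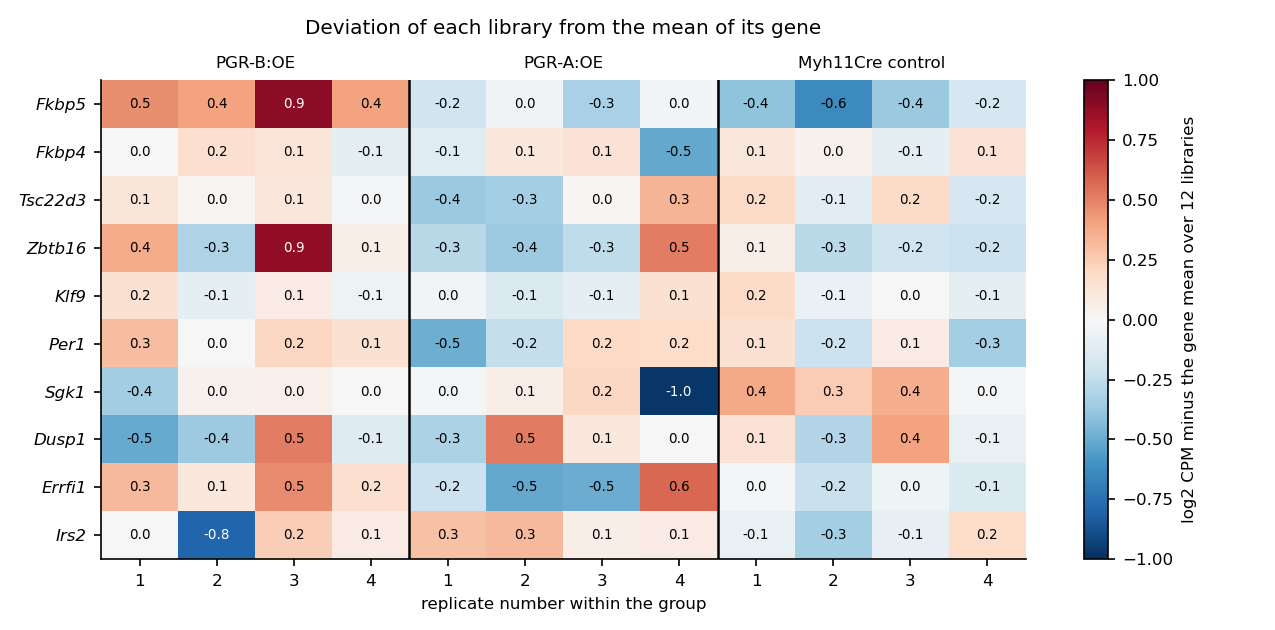
Log2 CPM of each library (columns) minus the mean of the gene over 12 libraries, for the 10 genes (rows), by group and replicate number, with red for above and blue for below the mean. The PGR-B:OE columns of Fkbp5 are all clearly red, while those of Errfi1 are above the mean but only faintly so in replicates 2 and 4. The column of PGR-A:OE replicate 4 holds the lowest Sgk1 (332 CPM) and the highest Errfi1 (402 CPM).

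Other targets of the receptors showed few calls. Of 28 other progesterone receptor targets tested, edgeR called 0 in PGR-B:OE against Myh11Cre control (5 at an unadjusted p under 0.05, and Cdkn1c higher by DESeq2, none by limma voom) and 1 in PGR-A:OE, where Stat5a, a transcription factor of prolactin signalling, fell. In PGR-A:OE 5 of the 28 had an unadjusted edgeR p under 0.05, limma voom called Stat5a alone, and DESeq2 called Stat5a as lower and Fst and Cdkn1c as higher. Stat5a averaged 56.8 ± 9.55 CPM in PGR-A:OE against 88.9 ± 5.17 CPM in Myh11Cre control (SD, n = 4 each; log2 fold change -0.65, SE 0.11, adjusted p = 0.0182), a call kept in 10 of the 12 fits with a library left out and lost at an adjusted p of 0.0830 without Myh11Cre control replicate 1 and of 0.0673 without PGR-A:OE replicate 2. It was also lost without PGR-A:OE replicate 4 and Myh11Cre control replicate 4 together (adjusted p = 0.0599) and in a fit of the 8 libraries compared (adjusted p = 0.0570). Between PGR-B:OE and PGR-A:OE edgeR, DESeq2 and limma voom called 0 of the 28, with 3 at an unadjusted edgeR p under 0.05. The medians of the 28 genes were 0.19 in PGR-B:OE and 0.14 in PGR-A:OE against Myh11Cre control. Above 0 were 22 of 28 in PGR-B:OE and 21 of 28 in PGR-A:OE, beside 48.8% and 50.1% of all genes. The list was chosen with earlier results of these data known, so these values are a description with no test. Of 41 other glucocorticoid receptor targets edgeR and limma voom called 0 in each comparison. At an unadjusted edgeR p under 0.05 stood 7 (17.1%) in PGR-B:OE against Myh11Cre control, beside 9.28% of all genes. In PGR-A:OE against Myh11Cre control 6 (14.6%) did, beside 15.4%, and between PGR-B:OE and PGR-A:OE 2 (4.88%) did, beside 8.04%. The medians of the 41 genes were -0.04 in PGR-B:OE and 0.03 in PGR-A:OE.

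Cdkn1c, which encodes the cell cycle inhibitor p57 and stands in both lists, had their lowest p in PGR-B:OE. It averaged 35.1 ± 7.97 CPM in PGR-B:OE and 28.6 ± 6.35 CPM in PGR-A:OE, against 19.4 ± 2.09 CPM in Myh11Cre control (SD, n = 4 each), and neither overexpression group overlapped the controls. The difference was 0.86 in PGR-B:OE (SE 0.17, adjusted p = 0.0688) and 0.56 in PGR-A:OE (SE 0.17, adjusted p = 0.158). Both were called by DESeq2. Without PGR-A:OE replicate 4 edgeR called Cdkn1c in PGR-B:OE (0.86, adjusted p = 0.0178), as it did with Myh11Cre control replicate 4 left out too (0.80, adjusted p = 0.0417), and its adjusted p was 0.0825 to 0.220 with any of the other 11 libraries left out. In PGR-A:OE the difference of Cdkn1c was 0.40 without PGR-A:OE replicate 4 and 0.33 without both. In the growth factor and insulin pathway around Errfi1 and Irs2, edgeR called 0 of 21 genes in PGR-B:OE against Myh11Cre control, as did DESeq2 and limma voom (1 at an unadjusted edgeR p under 0.05). In PGR-A:OE it called Hbegf, a ligand of the EGF receptor, at 13.4 ± 4.08 CPM against 4.38 ± 0.668 CPM in Myh11Cre control (SD, n = 4 each; log2 fold change 1.61, SE 0.26, adjusted p = 0.0147). That call was lost without Myh11Cre control replicate 1 (adjusted p = 0.0652) or replicate 2 (adjusted p = 0.0610). Without PGR-A:OE replicate 4 the difference of Hbegf was 1.78 (adjusted p = 0.00673). In the same comparison 5 of the 21 had an unadjusted edgeR p under 0.05, limma voom called Hbegf alone, and DESeq2 called Hbegf and Nedd4l as higher. Hbegf averaged 5.62 ± 1.91 CPM in PGR-B:OE, and the difference of PGR-B:OE over PGR-A:OE was -1.25 (SE 0.25, adjusted p = 0.134; called by DESeq2). edgeR called this difference of Hbegf without PGR-A:OE replicate 4 (-1.42, adjusted p = 0.0328), without that library and Myh11Cre control replicate 4 (-1.41, adjusted p = 0.0397) and without PGR-B:OE replicate 3 (-1.51, adjusted p = 0.0401), and its adjusted p was 0.141 to 0.360 with any of the other 10 libraries left out. Nedd4l, the ligase that the SGK1 kinase restrains, averaged 80.1 ± 9.05 CPM in PGR-B:OE against 101.8 ± 3.25 CPM in PGR-A:OE (SD, n = 4 each; -0.35, adjusted p = 0.178; called by DESeq2, and by edgeR without PGR-B:OE replicate 3, adjusted p = 0.0368). Between PGR-B:OE and PGR-A:OE edgeR and limma voom called 0 of the 21, and 3 had an unadjusted edgeR p under 0.05.

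The receptors and the remaining families were as follows. Pgr rose in both overexpression groups, with a log2 fold change of 0.88 (SE 0.14, adjusted p = 0.0196) for PGR-B:OE, kept in 6 of the 12 fits with a library left out. For PGR-A:OE it was 0.72 (SE 0.14, adjusted p = 0.0416), kept in 3 of the 12, and 0.58 (adjusted p = 0.0608) without PGR-A:OE replicate 4. Pgr was the 1 called gene of 14 receptor and corticosteroid enzyme genes in each comparison with the controls. Between the isoforms edgeR, DESeq2 and limma voom called 0 of those 14, with 1 at an unadjusted edgeR p under 0.05. The glucocorticoid receptor gene Nr3c1 averaged 52.4 ± 2.72 CPM in PGR-B:OE and 52.4 ± 2.97 CPM in PGR-A:OE, against 55.4 ± 4.70 CPM in Myh11Cre control (SD, n = 4 each). Of 10 other dual-specificity phosphatase genes and of 9 heat shock genes edgeR, DESeq2 and limma voom called 0 in each comparison. Among those phosphatases 1 in PGR-B:OE, 1 in PGR-A:OE and 0 between the isoforms stood at an unadjusted edgeR p under 0.05, and among the heat shock genes 0 in PGR-B:OE, 2 in PGR-A:OE and 1 between the isoforms did.

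Among 13322 genes with a mean of at least 1 CPM, the profiles most like that of Fkbp5 were sought by the root mean square difference of log2 CPM, each gene centred on its own mean over the 12 libraries. The nearest were Aldh1a1 (0.19), Amot (0.24), Tmem154 (0.25), Dzank1 (0.26) and Amotl1 (0.26), against a spread of Fkbp5 around its own mean of 0.43 and a median distance of 0.47 over all candidates. Aldh1a1 (chromosome 19, 20492715 to 20643465, plus strand) encodes an enzyme that makes retinoic acid, and it has a close paralog, Aldh1a7, with which reads could be shared. It had 27.9, 35.0, 29.2 and 28.6 CPM in PGR-B:OE, 19.9, 19.4, 19.6 and 19.6 CPM in PGR-A:OE, and 17.4, 14.6, 19.0 and 19.7 CPM in Myh11Cre control. The PGR-B:OE libraries again lay above all 8 others, although the highest of them was replicate 2 and not replicate 3 as for Fkbp5.

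Amot and Amotl1, angiomotin family members at cell junctions, were both in the group. Amot averaged 22.5 ± 3.16 CPM in PGR-B:OE and 17.3 ± 2.42 CPM in PGR-A:OE, against 15.8 ± 1.37 CPM in Myh11Cre control, and Amotl1 averaged 107.9 ± 9.51 CPM in PGR-B:OE and 89.3 ± 19.9 CPM in PGR-A:OE, against 76.9 ± 6.37 CPM in Myh11Cre control (SD, n = 4 each). Among the other 9 genes of the set the nearest to Fkbp5 was Errfi1, at a distance of 0.34. Those 9 were few among the 13322 candidates, so nearest genes from outside the set say nothing about the shared targets. These 5 genes were picked for their likeness over the same libraries, so their levels are a description with no test.

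**Figure D4:**
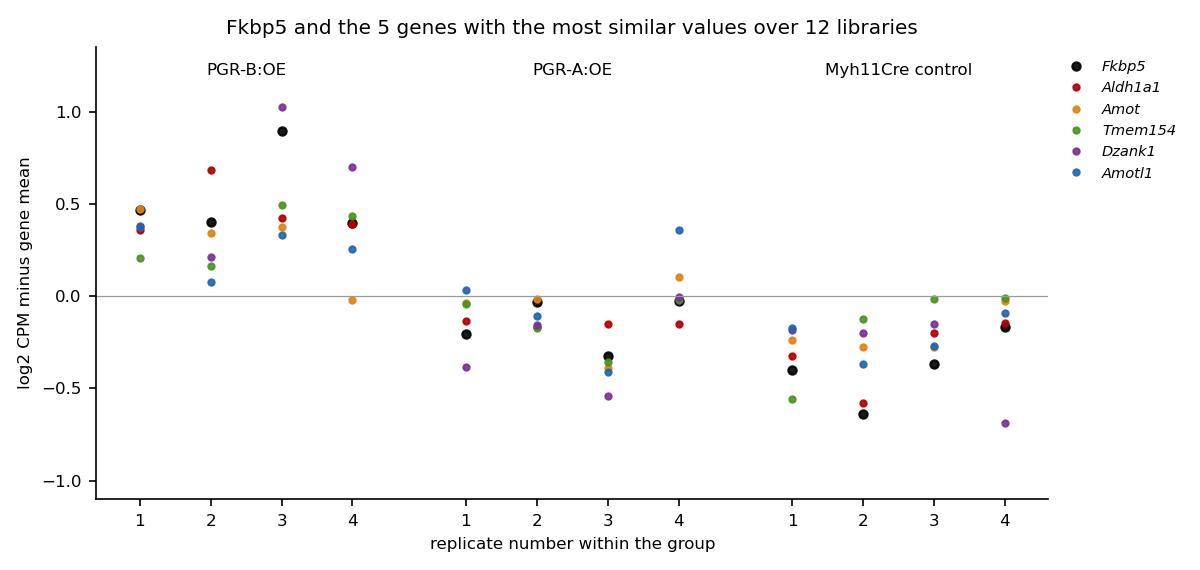
Log2 CPM minus the mean of the gene (y axis) in each library (x axis, replicate numbers within PGR-B:OE, PGR-A:OE and Myh11Cre control) for Fkbp5 (large black points) and the 5 genes with the most similar values. All points of PGR-B:OE except Amot in replicate 4 lie above 0, and all points of Myh11Cre control lie below it.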

How the data were processed

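The values are read counts per gene that the authors deposited in 1 table of 24964 genes and 12 libraries (4393 genes had no count). Per the labels' protocols, RNA was read as paired ends of 75 bp. The tools named, per the submitters' processing notes, are STAR 2.7.0f, Bowtie2 2.2.5, featureCounts of Subread 1.6.4 and DESeq2, with the build mm10 (GRCm38). The role of each tool and the use of strand in counting are not given in the sources used. Counts were scaled by TMM to CPM, filtered with filterByExpr (minimum count 10) and tested with edgeR 4.0.16 (robust quasi-likelihood fit of all 12 libraries, Benjamini-Hochberg adjustment over 15561 genes) in R 4.3.3. DESeq2 1.42.0, limma 3.58.1 (voom) and 18 other settings were alternatives. The fit was tested on simulated data. Figures used matplotlib 3.10.9. Positions are those of GENCODE release 21 and promoters those of RefSeq. The 10 genes and the lists were chosen with earlier results of these data known. Of each list, called genes were named (up to 4), or else up to 2 with the lowest p. The 5 genes most like Fkbp5 had the smallest root mean square difference of centred log2 CPM (prior count 2), with unnamed gene models skipped.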

Additional observations from a re-analysis of the deposited data

Results flagged for a closer look

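In 3 of the 30 sets of 4 libraries (10 genes in 3 groups), 1 library lay far from the other 3, with a gap above 0.829 of the range of the set on the log2 scale. Chance alone gives about 1 such library in 20 sets. Fkbp5 was at 167.5 CPM in PGR-B:OE replicate 3, where the other 3 PGR-B:OE libraries lay between 118.9 and 124.5 CPM. Sgk1 was at 511 CPM in PGR-B:OE replicate 1, where the other 3 PGR-B:OE libraries lay between 653 and 674 CPM. For Zbtb16, PGR-A:OE replicate 4 had 82.7 CPM, where the other 3 PGR-A:OE libraries lay between 45.0 and 48.5 CPM.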

How the results depend on the processing

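Fkbp5 passed for PGR-B:OE over Myh11Cre control in 20 of 20 alternatives, with log2 fold changes between 0.81 and 1.02. For PGR-B:OE over PGR-A:OE it passed in 1, DESeq2 (0.70). Of the 10 genes, 0 passed between the isoforms; the count was 1 with DESeq2, 1 without PGR-A:OE replicate 4 and Myh11Cre control replicate 4 together, and 0 to 1 with a library left out. Of all genes, 48 passed for PGR-B:OE over Myh11Cre control, against 216 with DESeq2, 91 without that pair, and 22 (without Myh11Cre control replicate 2) to 100 (without PGR-A:OE replicate 4) with a library left out. For PGR-A:OE over Myh11Cre control 102 passed, against 575 with DESeq2, 63 with the 8 libraries compared, and 32 (without Myh11Cre control replicate 1) to 109. For PGR-B:OE over PGR-A:OE 18 passed, against 125 with DESeq2, 10 with the 8 libraries compared, 38 without that pair, and 11 to 31 (without PGR-A:OE replicate 4) with a library left out. With the replicate number as a block that last count was 11, and Fkbp5 for PGR-B:OE over Myh11Cre control kept its call (adjusted p = 0.0369, edgeR). No pairing of the samples by number was seen, but 4 libraries a group are too few to exclude one. Libraries of 1 number had correlations of -0.26 to 0.19. Of 8 libraries, 1 correlated best with its own number in PGR-B:OE over Myh11Cre control and 1 in PGR-A:OE over Myh11Cre control. Between PGR-B:OE and PGR-A:OE 3 of 8 did. Small differences that did not pass turned sign, and the cause was not tested. For PGR-B:OE over Myh11Cre control, leaving out that pair gave 0.028 for Fkbp4, -0.034 for Tsc22d3 and -0.015 for Klf9, and Irs2 was -0.038 with limma voom and -0.015 with the block. Single libraries left out moved Fkbp4 between -0.050 and 0.043, Tsc22d3 between -0.037 and 0.086, Klf9 between -0.027 and 0.086 and Irs2 between -0.12 and 0.19. For PGR-A:OE over Myh11Cre control, leaving out that pair gave 0.018 for Fkbp4, -0.16 for Per1, -0.17 for Zbtb16, -0.31 for Errfi1 and -0.18 for Dzank1; limma voom gave -0.00465 for Per1 and -0.059 for Errfi1, and the block -0.030 for Errfi1. Single libraries left out moved Per1 between -0.084 and 0.13, Zbtb16 between -0.15 and 0.19, Klf9 between -0.10 and 0.029, Dusp1 between -0.12 and 0.17, Errfi1 between -0.30 and 0.13, Tmem154 between -0.091 and 0.085 and Dzank1 between -0.082 and 0.12. For PGR-B:OE over PGR-A:OE, Sgk1 was -0.14 without that pair and -0.14 to 0.18 with a library left out. With 4 libraries a group and 95% intervals as wide as those of Zbtb16 and Dusp1, differences of the size seen for Errfi1 were not detectable for these genes.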

Other observations

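The genes that set the hormone signal to these targets were measured beside them. Hsd11b1, which encodes the enzyme that regenerates active glucocorticoid, averaged 1249 ± 400.0 CPM in PGR-B:OE and 1061 ± 426 CPM in PGR-A:OE, against 1140 ± 263 CPM in Myh11Cre control (SD, n = 4 each). Hsd11b2, which encodes the enzyme that inactivates glucocorticoid, averaged 599 ± 45.6 CPM in PGR-B:OE and 635 ± 135 CPM in PGR-A:OE, against 518 ± 94.6 CPM in Myh11Cre control (SD, n = 4 each). The mineralocorticoid receptor gene Nr3c2 was low, at 0.966 ± 0.355 CPM in PGR-B:OE and 1.26 ± 0.510 CPM in PGR-A:OE, against 1.14 ± 0.139 CPM in Myh11Cre control (SD, n = 4 each). These 3 genes were not called by edgeR's quasi-likelihood test, DESeq2 or limma voom in any of the 3 comparisons.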
